A study of Aegilops tauschii x Triticum turgidum and Aegilops tauschii and Triticum turgidum subsp. durum with 18 samples.

Results

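SAHH, the wheat gene for S-adenosylhomocysteine hydrolase, acts in the methyl cycle and is described here across synthetic hexaploid wheats, their parents, mixes of parental RNA and a natural hexaploid wheat. It is 1 of 771 gene symbols that the array's probe table assigns, and it is represented by 2 of 61290 probe sets, called here the _a_at and the _x_at probe set after the ends of their names. Both were at or above 5 on the log2 scale on all 18 arrays and passed the filter on low values, which asked for that level on 2 arrays. The gene was selected on its lower level in generation 0 synthetics than in RNA mixes of their parents, seen earlier in these arrays. Every difference that uses a generation 0 or a mix array is therefore given as a description, without a test.

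The arrays were Affymetrix GeneChip Wheat Genome arrays, 1 RNA sample each, from untreated whole plants of 40 days. The study had 9 groups of 2 arrays. Courtot is a cultivar of the natural hexaploid Triticum aestivum. S1_54 is selfed generation 1 of the hybrid between Triticum turgidum cultivar Joyau, a tetraploid, and Aegilops tauschii accession 54, a diploid goat grass of spp. tauschii. S0_36 and S0_54 are selfed generation 0 of the hybrids of Joyau with accession 36 (spp. strangulata) and accession 54. The samples mix36 and mix54 held equal amounts of RNA from Joyau and from accession 36 or 54. Joyau, Ae36 and Ae54 denote the parents themselves. The labels do not say whether an array held RNA of 1 plant or of several, nor which extracts of the parents went into the mixes. Every sample, parents included, carries hexaploid as its genotype label.

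The methyl cycle supplies the methyl groups that methyltransferases put on DNA, histones, lignin precursors and many other molecules. Each transfer from S-adenosylmethionine leaves S-adenosylhomocysteine, which inhibits the methyltransferases. S-adenosylhomocysteine hydrolase splits it into adenosine and homocysteine, and homocysteine is methylated to methionine, from which S-adenosylmethionine is made again. In Arabidopsis, reduced function of this enzyme lowers DNA methylation and releases silenced genes. In Affymetrix names the suffix _a_at marks a probe set shared by transcripts of 1 gene, and _x_at a probe set with probes that may also match other sequences. Copies of a gene on the genomes that a hexaploid combines were not told apart here, and how well the probes match each species was not measured.

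Over all probe sets the values ran from 1.24 to 15.54 on the log2 scale, and the median of an array lay between 2.86 and 3.04. SAHH lay between those limits, at 10.20 to 12.53 on the _a_at probe set and 8.57 to 11.38 on the _x_at probe set. The label fields of Ae54 replicate 1 disagree: the description names accession 54, the organism field names the hybrid, and the extraction note names the accession 54 mix. Its profile over 18189 probe sets correlated at 0.971 with Ae54 replicate 2 and at 0.739 with each mix54 array. Over 702 probe sets high in Joyau and low in Ae36 and in Ae54 replicate 2, its median was 2.96, against 7.54 and 7.55 on the mix54 arrays. It was kept as Ae54, and results that rest on it are also given without it. Each mix was counted as 1 sample, because its paired arrays differed by an SD of only 0.131 in mix36 and 0.117 in mix54, against 0.46 to 0.671 in the plant groups. By their extraction notes, both Ae36 arrays and Ae54 replicate 2 started with 20 µg of total RNA, against 40 µg elsewhere.

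SAHH was low on all 6 synthetic arrays and on Ae54 replicate 1, and higher on the 11 remaining arrays. On the _a_at probe set, the natural hexaploid Courtot had log2 values of 11.86 and 11.51. The synthetics had 10.47 and 11.02 in S1_54, 10.89 and 10.58 in S0_36, and 10.20 and 10.37 in S0_54. All of these lay below both Courtot arrays, a placement whose share over all tested probe sets was not computed. For S1_54 alone, 42.3% of tested probe sets were lower than in Courtot without overlap. The mixes had 11.79 and 11.79 in mix36, and 12.52 and 12.53 in mix54. The parents had 11.94 and 11.80 in Joyau, 12.22 and 11.34 in Ae36, and 10.65 and 11.35 in Ae54. The highest synthetic array, an S1_54 array at 11.02, was below 11 of the 12 arrays of the other groups, and the exception was Ae54 replicate 1. In tissue of many cells, fewer cells expressing the gene and less of its RNA per cell cannot be told apart.

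The _x_at probe set gave the same picture on its own scale. Courtot had 10.65 and 10.20. S1_54 had 9.17 and 9.83, S0_36 had 9.60 and 9.17, and S0_54 had 8.57 and 9.16. Again no synthetic array reached a Courtot array. The mix36 arrays had 10.46 and 10.47, and the mix54 arrays 11.35 and 11.38. Joyau had 10.72 and 10.63, Ae36 had 11.02 and 10.27, and Ae54 had 9.29 and 10.20. The highest synthetic array, at 9.83, was likewise below 11 of 12 other arrays, with Ae54 replicate 1 again the exception. Of all tested probe sets, 2.06% had every synthetic array below every array of Courtot, both mixes, Joyau and Ae36, a grouping chosen after these values were seen.

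**Figure D1:**
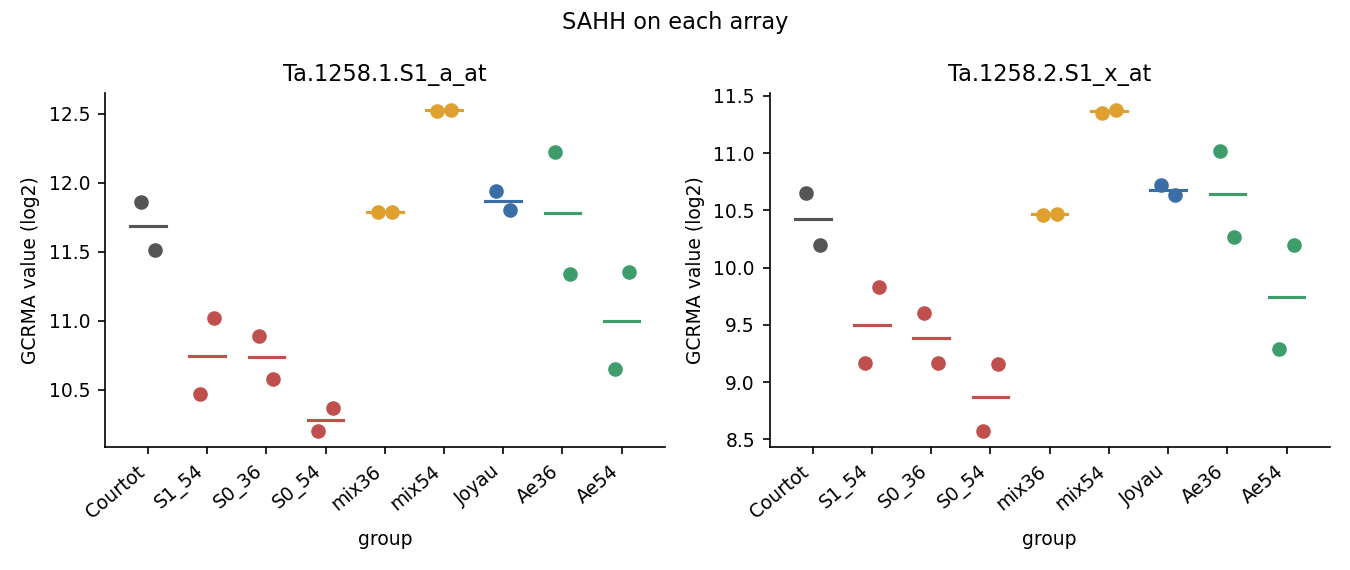
GCRMA log2 value of SAHH (vertical axes, which do not start at 0) on each of 18 arrays by group (horizontal axis), 1 panel per probe set. Points are arrays and bars are means of 2 arrays; the synthetic arrays, at most 11.02 and 9.83, lie below all other arrays but Ae54 replicate 1, and mix54 lies highest.

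From lowest to highest on the _a_at probe set, the groups were S0_54, S0_36, S1_54, Ae54, Courtot, Ae36, mix36, Joyau and mix54. For the _x_at probe set only mix36 and Ae36 changed places. Several neighbours in this order had overlapping arrays on both probe sets: S0_36 with S1_54, S1_54 with Ae54, Courtot with its next higher group, and mix36 with Ae36. Mean levels of S0_36 and S1_54, at 10.73 and 10.75 on the _a_at probe set, lay 0.01 apart before rounding, with SDs of 0.22 and 0.39. Neighbours without overlap on either probe set were S0_54 and S0_36 at the low end and Joyau and mix54 at the high end. The gap from mix54 down to Joyau was 0.65 and 0.68 on the 2 probe sets, against gaps between paired arrays of 0.01 and 0.03 in mix54 and 0.14 and 0.09 in Joyau. Both mix54 arrays are labelled as mixes of the same parents, and the labels do not say whether they share a pool. Their gap was therefore not taken as the spread between plant samples. Among tested probe sets, 19.1% and 18.4% had a mix54 minus Joyau difference as high or higher.

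The comparison of generation 0 synthetics with the mixes, on which the gene was selected, asked where a hybrid departs from an equal mixture of its parents' RNA. In the cross with accession 36, SAHH averaged 10.73 ± 0.22 in S0_36 and 11.79 ± 0.00 in mix36 on the _a_at probe set (SD, n = 2 arrays each), a log2 difference of -1.05, or 0.482-fold. The corresponding value of the _x_at probe set was -1.08. In the cross with accession 54 the averages were 10.29 ± 0.12 in S0_54 and 12.52 ± 0.01 in mix54, a log2 difference of -2.24, or 0.212-fold, with -2.49 on the _x_at probe set. Arrays of synthetic and mix did not overlap in either cross on either probe set. Among tested probe sets, 47.8% in cross 36 and 44.6% in cross 54 were likewise lower without overlap. A difference as low as that of the _a_at probe set was seen in 9.82% of tested probe sets in cross 36 and 1.42% in cross 54, and the medians over all tested were -0.14 and -0.06.

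The crosses differed in the SAHH level of their mixes. The mix54 arrays were above every Joyau and Ae54 array on both probe sets, as were those of 11.3% of tested probe sets. The mix54 mean exceeded the mix36 mean by 0.74 on the _a_at probe set and by 0.90 on the _x_at probe set. A level computed from the parents, as the log2 of their averaged linear values in equal parts, was 11.86 for cross 36 and 11.52 for cross 54 on the _a_at probe set. On that probe set mix36 stood at -0.07 from its computed level, and mix54 at 1.01. On the _x_at probe set the same differences were -0.23 for mix36 and 1.05 for mix54. Over all tested probe sets the median of this difference was -0.10 for mix36 and -0.02 for mix54, and 2.57% of tested probe sets were as far above as the _a_at probe set in mix54. With Ae54 replicate 2 as the only Ae54 array, mix54 stood at 0.89 on the _a_at and 0.90 on the _x_at probe set. Bacterial controls, RNAs added to each hybridization, averaged 7.48 ± 0.01 in mix54 and 7.91 ± 0.02 in mix36. In the parents they averaged 8.54 ± 0.45 in Joyau, 9.13 ± 0.22 in Ae54 and 9.83 ± 1.81 in Ae36. Their part in the mix levels was not tested.

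Set against computed levels instead of the mixes, the crosses lay closer together. On the _a_at probe set, S0_36 stood at -1.13 and S0_54 at -1.23 against equal parts of the parents. The _x_at values stood at -1.30 and -1.45. With 2 parts of Joyau to 1 part of the diploid, which is nearer to the genome content of a hexaploid, the values were -1.13 and -1.36 on the _a_at probe set and -1.30 and -1.58 on the _x_at probe set. SAHH was thus lower in generation 0 against each of the 3 forms of the combined parents, and the size in cross 54 varied with the form used. Without Ae54 replicate 1, the S0_54 values against equal parts were -1.35 and -1.59.

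**Figure D2:**
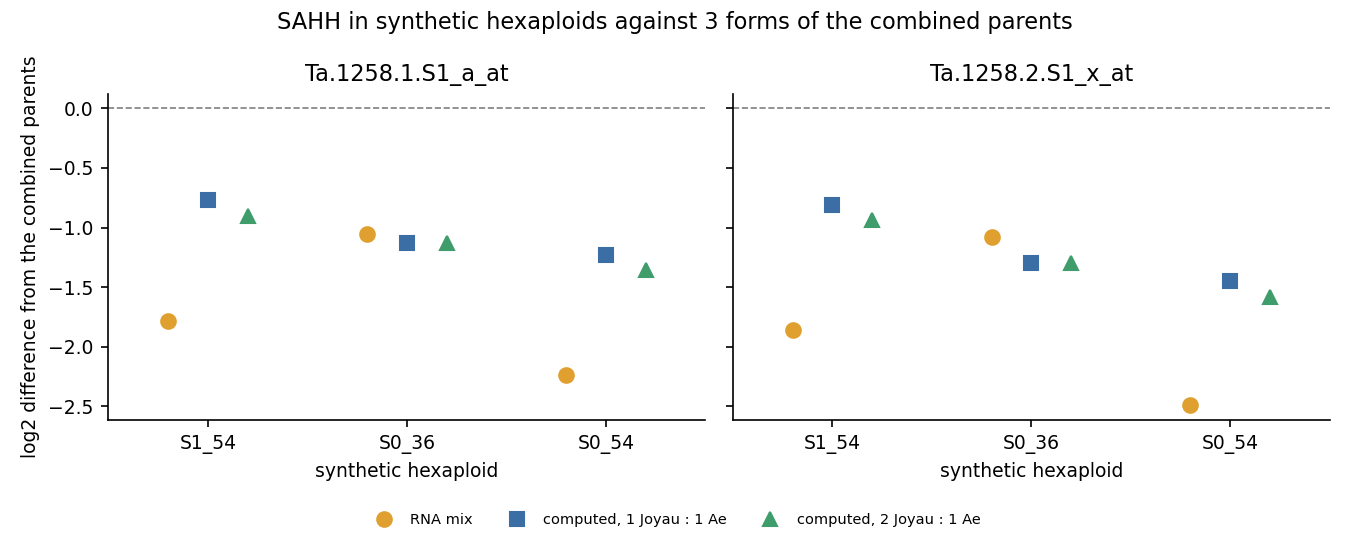
Log2 difference of SAHH in each synthetic group (horizontal axis) from the RNA mix (circles), from a level computed with equal parts of the parents (squares) and from one with 2 parts Joyau to 1 part diploid (triangles), 1 panel per probe set. All values are below 0, and the circles of S0_54 (-2.24 and -2.49) lie lowest; points are differences of group means, without error bars.

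S0 arrays also lay below both parents. S0_36 was below every Joyau, Ae36 and mix36 array on both probe sets, with differences of -1.14 from Joyau and -1.05 from Ae36 on the _a_at probe set. The share of tested probe sets with that placement was 11.4%. S0_54 was below every Joyau, Ae54 and mix54 array, at -1.59 from Joyau and -0.71 from Ae54 on the same probe set, and 8.97% of tested probe sets shared that placement. The nearest arrays of S0_54 and Ae54 differed by -0.28 on the _a_at probe set and -0.13 on the _x_at probe set, and the Ae54 array was replicate 1 in both cases. From Ae54 replicate 2, the S0_54 mean differed by -1.07 and -1.34.

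Between the crosses, S0_36 was above S0_54 by 0.45 on the _a_at probe set and by 0.52 on the _x_at probe set. Their arrays did not overlap, as in the 21.2% of tested probe sets that were higher in S0_36 without overlap, but on the _x_at probe set the nearest arrays were 0.01 apart. With 1 array left out the difference ran from 0.29 to 0.60 and from 0.22 to 0.81. It was 0.29 and 0.30 without S0_36 replicate 3, and on the _x_at probe set 0.22 without S0_54 replicate 3 and 0.81 without S0_54 replicate 4.

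SAHH was also low in selfed generation 1. S1_54 averaged 10.75 ± 0.39 and S0_54 10.29 ± 0.12 on the _a_at probe set (SD, n = 2 arrays each), a difference of 0.46, with 0.64 on the _x_at probe set. S1_54 arrays were above S0_54 arrays without overlap, as were those of 19.1% of tested probe sets, by 0.10 at the nearest on the _a_at probe set and 0.01 on the _x_at probe set. The size rested on single arrays: it was 0.18 and 0.31 without S1_54 replicate 7, 0.74 and 0.97 without S1_54 replicate 5, and 0.38 and 0.34 without S0_54 replicate 3. Against mix54, which S0_54 was also set against, S1_54 stood at -1.78 and -1.86 on the 2 probe sets. Against equal parts of the parents the S1_54 values were -0.77 and -0.81, and -0.89 and -0.96 without Ae54 replicate 1.

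Comparisons that used no generation 0 and no mix array were tested, 9 in all with 2 probe sets each. Of these 18 tests, 3 passed at an adjusted p under 0.05, and 8 had an unadjusted p under 0.05. They were not all free of the selection of the gene. S1_54 is the next selfed generation of the same hybrid as S0_54, and mix54 held Joyau RNA. The test of S1_54 against Joyau may therefore partly repeat the difference on which SAHH was selected. The same holds for S1_54 against Ae54, whose RNA mix54 also held. Courtot against S1_54 uses the same S1_54 arrays and shares this limit in part. The spread in these tests was estimated over all groups together, with 2 arrays a group. The labels call the arrays of the parents and Courtot biological replicates. Those of the synthetics only carry numbers, and no label says how many plants an array holds. The p-values judge each difference against the shared spread.

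Generation 1 plants were compared with each parent. SAHH was lower in S1_54 than in Joyau. On the _a_at probe set the means were 10.75 ± 0.39 in S1_54 and 11.87 ± 0.10 in Joyau (SD, n = 2 arrays each), a log2 difference of -1.13 ± 0.34 (SE, adjusted p = 0.0225), or 0.458-fold. On the _x_at probe set the difference was -1.17 ± 0.38 (SE, adjusted p = 0.0337). Both probe sets passed, in a comparison where 38.5% of tested probe sets passed and 22.6% passed as lower in S1_54. Arrays did not overlap on either probe set, as in 43.3% of tested probe sets lower in S1_54.

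The calls against Joyau rested on few arrays. They ended on both probe sets without S1_54 replicate 5, at -0.85 and -0.84, and also without Joyau replicate 1 or without Joyau replicate 2, with adjusted p-values from 0.0606 to 0.214. They ended too when probe sets with low values were kept in the test, with adjusted p-values of 0.0783 and 0.122. The 18S rRNA control, a sign of ribosomal RNA carried into the labelling, averaged 8.23 ± 0.47 in S1_54 and 6.79 ± 0.98 in Joyau. Spiked bacterial controls averaged 9.26 ± 0.13 in S1_54 and 8.54 ± 0.45 in Joyau, and the part of either in the difference was not tested.

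Against its diploid parent, SAHH in S1_54 did not pass. The _a_at probe set averaged 10.75 ± 0.39 in S1_54 and 11.00 ± 0.50 in Ae54, a difference of -0.25 ± 0.34 (SE, adjusted p = 0.557). On the _x_at probe set it was -0.25 as well, with a 95% interval from -1.10 to 0.61. In this comparison 54.0% of tested probe sets passed. Without Ae54 replicate 1 the differences were -0.61 and -0.70, and without Ae54 replicate 2 they were 0.10 and 0.21, so the sign followed the Ae54 array kept.

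Between the parents of the accession 54 cross, SAHH was higher in Joyau on both probe sets, and the difference passed on 1 of them. Joyau averaged 11.87 ± 0.10 and Ae54 11.00 ± 0.50 on the _a_at probe set (SD, n = 2 arrays each), a log2 difference of 0.87 ± 0.34 (SE, adjusted p = 0.0465). The _x_at probe set had a difference of 0.93 ± 0.38, which did not pass (adjusted p = 0.061). In this comparison 55.9% of tested probe sets passed and 29.8% passed as higher in Joyau. Arrays did not overlap on either probe set, as in 41.5% of tested probe sets higher in Joyau. The call ended without Ae54 replicate 1, where the difference was 0.52, and without Joyau replicate 1 or 2, at 0.80 and 0.94. Without Ae54 replicate 2 the differences were 1.23 and 1.38. They then rest on Ae54 replicate 1, whose total RNA amount is uncertain because its extraction note names the mix. The call also ended in 6 further settings, given among the processing alternatives. The bacterial hybridization controls, RNAs added to each hybridization, averaged 8.54 ± 0.45 in Joyau and 9.13 ± 0.22 in Ae54. petC, a photosynthesis gene taken as a leaf marker, averaged 13.75 ± 0.05 in Joyau and 14.07 ± 0.16 in Ae54, its highest group. The 18S rRNA control was at 6.79 ± 0.98 and 6.62 ± 0.31, and the part of these in the difference was not tested.

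Joyau and Ae36 had close means. On the _a_at probe set they averaged 11.87 ± 0.10 and 11.78 ± 0.62, a difference of 0.09 with a 95% interval from -0.65 to 0.84 (adjusted p = 0.834). On the _x_at probe set the difference was 0.03, with an interval from -0.82 to 0.88. Neither passed, in a comparison where 59.6% of tested probe sets did. The Ae36 arrays lay on either side of both Joyau arrays on each probe set.

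Between the accessions, Ae36 averaged 11.78 ± 0.62 and Ae54 11.00 ± 0.50 on the _a_at probe set, a difference of 0.78 ± 0.34 (SE, adjusted p = 0.144). On the _x_at probe set it was 0.90 ± 0.38 (adjusted p = 0.142). Neither passed, while 18.3% of tested probe sets did, although both intervals lay above 0, from 0.04 to 1.52 and from 0.05 to 1.75, before adjustment over probe sets. Arrays overlapped on the _a_at probe set and not on the _x_at probe set, as in 25.5% of tested probe sets higher in Ae36. Without Ae36 replicate 2 the difference on the _a_at probe set was 1.22 and passed (adjusted p = 0.0418). Without Ae54 replicate 1 the differences were 0.43 and 0.44, and without Ae36 replicate 1 they were 0.34 and 0.52.

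Courtot was compared with the parents of the synthetics and with the generation 1 synthetic, to set a natural hexaploid beside a new one. The labels do not make these parents the forebears of Courtot. It is a single cultivar, so its own genotype and its natural origin cannot be told apart. Courtot averaged 11.68 ± 0.25 and Joyau 11.87 ± 0.10 on the _a_at probe set, a difference of -0.19 with a 95% interval from -0.93 to 0.56 (adjusted p = 0.718). Against Ae36 the difference was -0.09, with an interval from -0.84 to 0.65. The _x_at probe set was at -0.25 against Joyau and -0.22 against Ae36. None of these passed, in comparisons where 33.0% and 45.0% of tested probe sets did.

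Courtot was above Ae54 by 0.69 ± 0.34 on the _a_at probe set (SE, adjusted p = 0.135) and by 0.68 ± 0.38 on the _x_at probe set (adjusted p = 0.196), which did not pass, while 39.6% of tested probe sets did. Arrays were apart on the _a_at probe set, as in 33.8% of tested probe sets higher in Courtot, and overlapped on the _x_at probe set. Without Ae54 replicate 1 the differences were 0.33 and 0.22, and without Ae54 replicate 2 they were 1.04 and 1.13, with adjusted p-values of 0.0643 and 0.0669.

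Courtot also had more SAHH signal than S1_54 on every array, but the difference did not pass. Means on the _a_at probe set were 11.68 ± 0.25 in Courtot and 10.75 ± 0.39 in S1_54, a log2 difference of 0.94 ± 0.34 (SE, adjusted p = 0.0559), or 1.92-fold. The _x_at probe set had 0.92 ± 0.38 (adjusted p = 0.0926). Of the tested probe sets 31.3% passed, and 42.3% were higher in Courtot without overlap. The _a_at probe set passed after quantile normalization (adjusted p = 0.0488), with array weights (0.042) and with the mix arrays counted separately (0.0257). Its adjusted p was 0.157 with no filter on low values, and 0.0546 to 0.306 with 1 array left out. Without S1_54 replicate 5 the differences were 0.66 and 0.59, and without S1_54 replicate 7 they were 1.22 and 1.25. The 18S rRNA control averaged 5.35 ± 0.91 in Courtot and 8.23 ± 0.47 in S1_54, and the bacterial hybridization controls 7.70 ± 0.62 and 9.26 ± 0.13. Their part in the difference was not tested. As a description, Courtot was above S0_36 by 0.95 and above S0_54 by 1.40 on the same probe set.

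**Figure D3:**
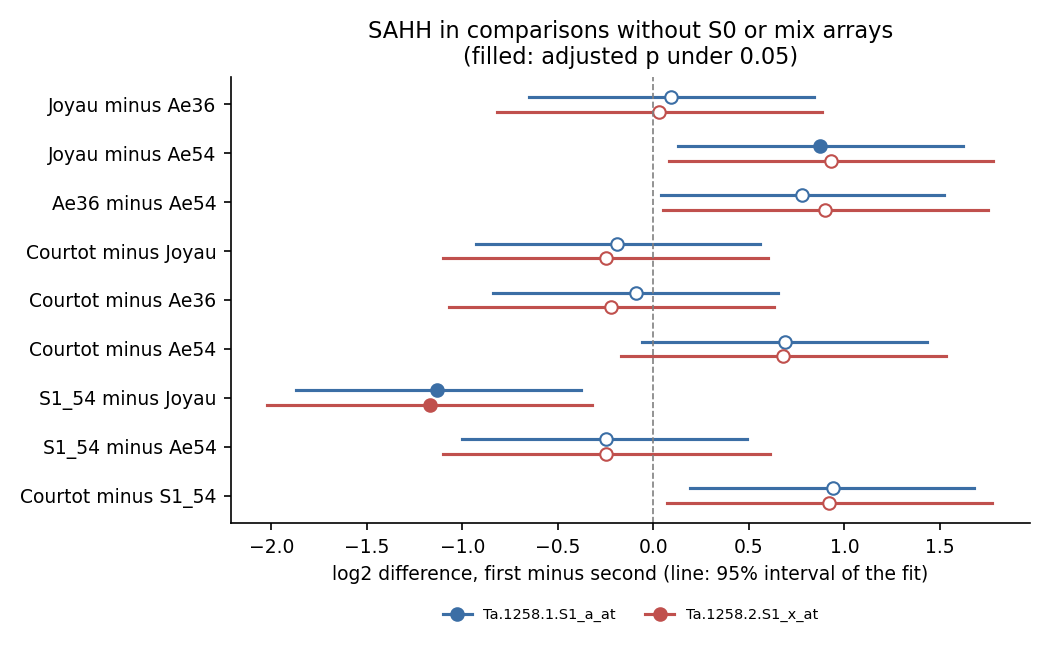
Log2 difference of SAHH (horizontal axis, first group minus second) with its 95% interval from the fit in 9 comparisons (vertical axis), blue for the _a_at probe set and red for the _x_at probe set. Filled points passed at an adjusted p under 0.05: both probe sets for S1_54 minus Joyau (-1.13 and -1.17) and the _a_at probe set for Joyau minus Ae54 (0.87).

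Control levels are given here for the groups of the described differences from the mixes. The 18S rRNA control averaged 4.82 ± 0.96 in S0_54 and 4.93 ± 0.05 in mix54. It averaged 5.93 ± 0.05 in S0_36 and 5.17 ± 0.04 in mix36. For S1_54 it was 8.23 ± 0.47, against 4.93 ± 0.05 in mix54. The bacterial hybridization controls, which are spiked in, averaged 8.05 ± 0.20 in S0_54 and 7.48 ± 0.01 in mix54, and 8.49 ± 0.28 in S0_36 and 7.91 ± 0.02 in mix36. In S1_54 these controls averaged 9.26 ± 0.13. Their part in the SAHH differences was not tested.

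Replicates of the diploids differed most in SAHH. The widest gaps between paired arrays were 0.88 in Ae36 and 0.71 in Ae54 on the _a_at probe set, larger than those of 83.1% and 84.2% of tested probe sets in the same groups. Gaps on the _x_at probe set were 0.75 and 0.91. The S1_54 pair came next, at 0.55 and 0.66. Paired arrays of Joyau were 0.14 and 0.09 apart, below the median gap of 0.24 over all tested probe sets. Ae36 replicate 2, the lower of its pair for SAHH, had the brightest hybridization controls of its group, at 11.11, against 8.55 in replicate 1. The actin control's 3′ minus 5′ difference, a sign of RNA quality, was -0.91 in Ae36 replicate 1 and -2.00 in replicate 2, and that of GAPDH was -1.11 and -0.21. In Ae54 the actin value was -1.12 to -1.10, and in the remaining groups it was -0.84 to -0.59. The GAPDH value was -0.32 to -0.19 on all arrays but Ae36 replicate 1. The same difference for the EF1A control was 0.13 in Ae36 replicate 1 and 0.34 to 0.55 on the other arrays. Their part in the SAHH levels was not tested.

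The probe sets of SAHH ran together. Across the 16 samples their values correlated at r = 0.991 (Spearman's rho 0.985), and deviations of the 14 plant arrays from their group means at r = 0.95. Each pair of values comes from the same array, and the probe sets share a gene and may share probes, so they are not separate evidence of a level. Both gave the same sign in all 9 tested comparisons.

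Few transcripts followed SAHH closely over the groups. Likeness was measured as Pearson's r with the mean of the SAHH probe sets over the 16 samples, which share arrays and normalization, and is given as a description. Of 18187 other tested probe sets, 55 (0.302%) reached r of 0.8 and 5 reached 0.9, with a median r of 0.04, and 23 were at -0.8 or lower. Those 5, named after their values were seen, were Ta.28331.1.S1_x_at (0.92), Ta.24114.13.S1_at, Ta.28291.3.S1_x_at and Ta.28331.1.S1_at (0.91 each) and Ta.30947.1.S1_at (0.90). The probe table gives them no gene. On Ta.28331.1.S1_x_at the log2 means were 10.56 in S1_54, 10.49 in S0_36 and 10.54 in S0_54, against 11.11 in mix36, 11.39 in mix54 and 11.37 in Joyau, a narrower range than that of SAHH.

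Among 510 other named genes, the 6 most like SAHH were LOC606316 (r = 0.88), LOC543356 (0.87), LOC543169 (0.86), LOC543449 (0.85), LOC542899 (0.80) and LOC606340 (0.80). The table gives no function for these identifiers. Across all arrays they spanned 0.59 to 1.46 on the log2 scale, against 2.33 and 2.80 for the SAHH probe sets. LOC606316 averaged 5.95 in S0_36 and 5.94 in S0_54, against 6.33 in mix36 and 7.14 in mix54, so it too was highest in mix54. LOC542899 tracked SAHH best of these, at r = 0.93, over the 10 samples left without generation 0 and mixes. There LOC606340 was at 0.56 and the others at 0.74 to 0.84. The genes least like SAHH were LOC606324 (-0.78), LOC100037634 (-0.78) and LOC780692 (-0.74). LOC780692 averaged 8.46 in S1_54, 8.00 in S0_36 and 7.76 in S0_54, against 4.92 in mix36, 5.19 in mix54 and 5.19 in Joyau.

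**Figure D4:**
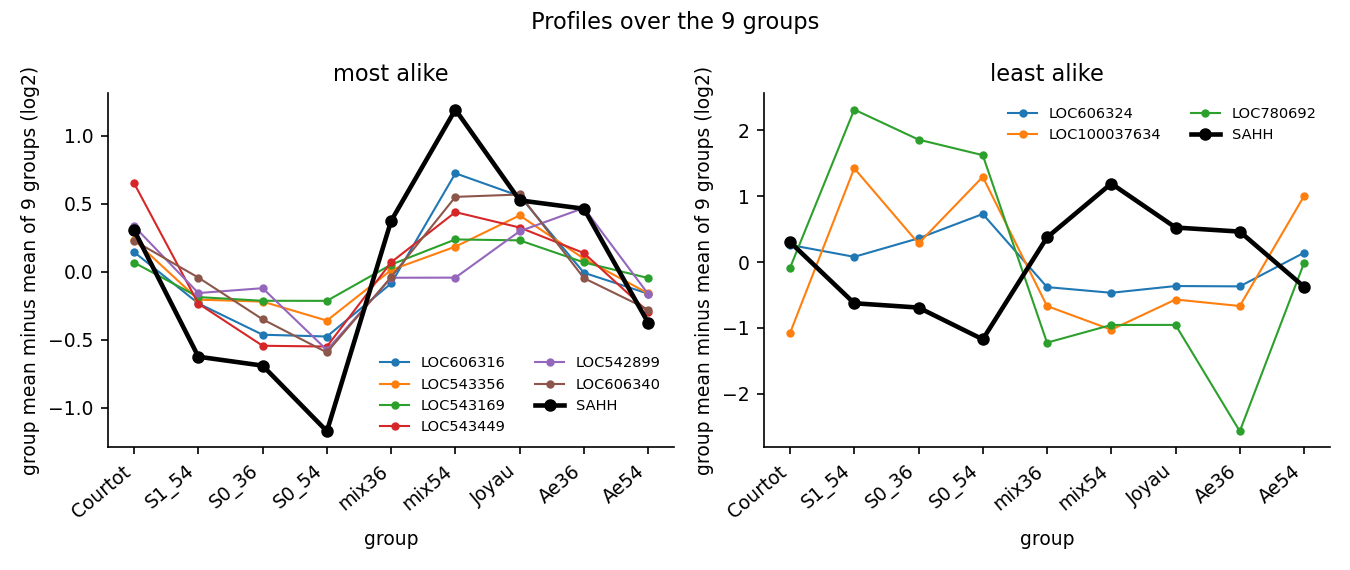
Group means minus the mean of the 9 groups (vertical axes, log2) for SAHH (black) and the 6 named genes most like it (left) or the 3 least like it (right), by group (horizontal axes). Lines join groups only to show a profile. SAHH and the 6 genes lie below their own 9-group mean in the synthetics, which choosing genes by likeness over these same samples favours. SAHH has a wider swing than those 6.

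Other enzymes of the methyl cycle and users of S-adenosylmethionine could not be set beside SAHH. The probe table named 0 genes of the methyl cycle list, such as S-adenosylmethionine synthetase, methionine synthase or adenosine kinase, and 0 of the list of methyltransferases and other users. Of the leaf markers it named petC, which encodes the Rieske protein of the photosynthetic electron chain, with 1 tested probe set. petC was at 12.96 to 14.18 on all arrays, and it averaged 13.41 ± 0.24 in S0_36 and 13.76 ± 0.01 in mix36, and 13.64 ± 0.07 in S0_54 and 13.62 ± 0.05 in mix54. petC was thus detected in every group. The lowest petC mean was that of S1_54, at 13.18 ± 0.31, against 13.75 ± 0.05 in Joyau, and the part of tissue makeup in the SAHH differences was not tested.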

How the data were processed

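The authors deposited log2 values for every probe set on each array. The submitters' processing notes name GCRMA, which corrects background by probe sequence, normalizes arrays together and summarises probes. Its version is not given in the sources used here. SAHH is measured by Ta.1258.1.S1_a_at and Ta.1258.2.S1_x_at. Groups came from the sample descriptions. The 2 arrays of each mix were averaged, leaving 16 samples. Control probe sets (111) were left out, and 18189 probe sets reaching log2 5 on 2 arrays or more entered the tests. limma 3.58.1 in R 4.3.3 fitted 1 mean per group (lmFit, eBayes, two-sided, 7 residual and 3.44 prior degrees of freedom), with Benjamini-Hochberg adjustment within each comparison. The fit was tested on simulated data.

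The gene, the lists and the tests were chosen with earlier results of these data known. The rule for other named genes took the 6 highest and the 3 lowest correlations with SAHH, and listed pathway members and leaf markers. Genes were named from a 2007 probe table, which pairs 1273 probe sets with 1 symbol and lists none for 60017. Alternatives covered normalization, filter, samples in the fit, array weights, a replicate block and leaving out each array. The number of arrays limits the precision, and depth of sequencing does not apply. No value column was without a sample. Sequences were not used here.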

Additional observations from a re-analysis of the deposited data

How the results depend on the processing

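Of 204 values under alternative settings for the 18 SAHH tests, 168 kept direction and side of the threshold, 17 lost the call, 6 gained one and 13 changed sign. The 13 belong to differences that did not pass, and none of the 13 passed. For S1_54 minus Joyau the values stayed negative in every setting, and the calls ended with no filter on low values (-1.13 and -1.17). When 1 array was left out they ran from -1.40 to -0.85 and from -1.50 to -0.84. For Joyau minus Ae54 on the _a_at probe set the call ended after quantile normalization (0.76), after centring of arrays on their medians (0.90), and at 0.87 with no filter, with only both groups in the fit, with the replicate block, and with the parents and Courtot alone without a block, the last chosen after seeing the data. Adjusted p-values there were 0.0524 to 0.134. Leaving out 1 array gave 0.52 to 1.23, and 0.47 to 1.38 on the _x_at probe set, which passed at 0.93 with separate mix arrays. Courtot minus S1_54 on the _a_at probe set passed after quantile normalization (0.96) and at 0.94 with array weights or separate mix arrays, and ran from 0.66 to 1.22 and from 0.59 to 1.25 with 1 array left out. Small differences changed sign: Joyau minus Ae36 on the _x_at probe set after quantile normalization (-0.05) and Courtot minus Ae36 on the _a_at probe set after centring (0.02). With 1 array left out, the ranges were -0.35 to 0.53 and -0.34 to 0.41 for Joyau minus Ae36, -0.53 to 0.34 and -0.60 to 0.15 for Courtot minus Ae36, -0.61 to 0.10 and -0.70 to 0.21 for S1_54 minus Ae54, and 0.34 to 1.22 for Ae36 minus Ae54 on the _a_at probe set. Where an array left out leaves a group with 1 sample, that sample is assumed to vary like the other groups. A lost or gained call had no tested cause. Among descriptions, computed mid-parents moved S0_54 minus mix54 to -1.23 and -1.36 on the _a_at probe set and to -1.45 and -1.58 on the _x_at probe set, S1_54 minus mix54 to -0.77 and -0.90 and to -0.81 and -0.94, and S0_36 minus mix36 on the _x_at probe set to -1.30.

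Replicate numbers 1 and 2 are shared by Joyau, Ae36, Ae54 and Courtot, but deviations of same-numbered arrays correlated between groups at only -0.0564 to 0.228, so they were not read as pairs. With the replicate block, run for the 6 comparisons among these groups, the SAHH tests other than Joyau minus Ae54 on the _a_at probe set kept their side of the threshold. No block was possible for S1_54, whose replicates carry other numbers. With the block the count of all probe sets that passed for Ae36 minus Ae54 was 2131, against 2278 in the same arrays without it, 3322 with all groups, 1944 with array weights and 1057 with only both groups in the fit. The count for Courtot minus Ae36 was 8182, and 12862 with no filter. That for Courtot minus S1_54 was 5693, and 3725 with only both groups in the fit, 3034 without S1_54 replicate 5 and 3742 without Courtot replicate 1. Quantile normalization and centring shifted the median over all tested probe sets for Courtot minus Ae36 by -0.13 and 0.12.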
